A study of Rattus norvegicus with 4 samples.

Results

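The monocytes described here are 351 cells of the rat abdominal midline fascia, taken from 34904 cells that passed quality control in 4 single-cell RNA libraries. A cell was chosen when it held a UMI (1 counted RNA molecule) of at least 2 of the 5 genes Plac8, Vcan, Fgr, Cd300e and Ace. It also had to be low in complement C1q, Cd74, the S100a8 and S100a9 pair and type I collagen, and to lack CD3, Klrd1, Nkg7 and Ms4a1 with few or no Pecam1 UMIs. These 20 genes chose the cells, so their levels are given below as a description and none of them is tested. Dysentery had been induced with Salmonella in all of the rats. The acupuncture group, 2 libraries, came from dysenteric rats that then received acupuncture, and the dysentery group, 2 libraries, came from dysenteric rats without it. No library from healthy rats was analysed here, and strain, sex, age and the time after treatment are not given in the sources used here. The fascia had been digested with collagenase and elastase, red cells had been lysed and dead cells removed. Titles, descriptions and the design text put each library in the same group, while the treatment field of all 4 libraries names the other group, so every direction below rests on the titles.

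Monocytes leave the bone marrow for the blood and enter tissues, where they can become macrophages or dendritic cells. Classical monocytes carry the chemokine receptor Ccr2 and are recruited to infected or injured tissue. Patrolling, or nonclassical, monocytes depend on the nuclear receptor Nr4a1, carry Cx3cr1, Spn (CD43) and the Fc receptor Fcgr3a, and crawl along vessel walls. Connective tissue such as fascia holds resident macrophages that make C1q, and monocytes there are few.

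The libraries held 8930 and 10060 deposited cells with acupuncture, against 7965 and 11327 with dysentery. Their total counts were 70499776 and 93897006 UMIs with acupuncture and 53066666 and 79461544 UMIs with dysentery. Dysentery library 1 stood apart in quality: 16% of its cells exceeded the mitochondrial limit of 20% of UMIs, against 7.0% and 7.17% in the acupuncture libraries and 5.11% in dysentery library 2. The gated cells summed to 1225536 and 817649 UMIs with acupuncture and to 1672691 and 350564 UMIs with dysentery. No cell barcode was shared between libraries among the gated cells. The labels do not say that the libraries came from separate animals, so each p-value measures the spread between these libraries only. With 2 libraries against 2, the design allows no exact permutation p below 0.333.

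Most of the gated cells were chosen through a single pair of genes. Plac8, a small cysteine-rich protein of myeloid cells, had a UMI in 344 of the 351 cells, and Fgr, a Src-family kinase of myeloid cells, in 258. Vcan, the proteoglycan versican made by classical monocytes, had a UMI in 165, and Ace, angiotensin-converting enzyme, in 99. Cd300e, a receptor of human monocytes, had a UMI in 4 cells. At the threshold, 196 cells held exactly 2 of the 5 genes and lay just inside, while 622 cells that met every other condition held 1 and lay just outside. Csf1r, the receptor for macrophage colony-stimulating factor, had a UMI in 38.9 to 54.2% of the cells just inside and in 4.23 to 7.28% of those just outside, over the 4 libraries. Other myeloid genes were less sharply divided. Lyz2 had a UMI in 65.96 to 79.31% of the cells just inside and in 23.81 to 50.82% of those just outside. For Tyrobp these shares were 60.42 to 76.39% and 16.4 to 30.6%, and Fcer1g lay the same way. Some of the cells just outside thus held myeloid RNA. A further 1134 cells met every condition but the limit on Cd74.

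The label monocyte held for most, but not all, of these cells. Of the 351, 277 had UMIs of at least 2 of the 4 general myeloid genes Lyz2, Csf1r, Tyrobp and Fcer1g, and 74 did not. Of the 351, 60 had at least 2 of the epithelial genes Epcam, Krt8 and Krt18; 18 of these 60 also had 2 of the myeloid genes, and 52 held Ace. The 60 cells also carried the RNA of milk proteins. The casein Csn3 had 57937 and 14934 CPM (UMIs of a gene, scaled to a common total of UMIs of the summed cells) in them with acupuncture, against 19557 and 22641 CPM with dysentery. They were large cells, with median counts of 21374 and 31589 UMIs with acupuncture and 20393 and 17260 UMIs with dysentery. They gave 47.2% and 46.2% of all UMIs of the gated cells with acupuncture, against 33.5% and 30% with dysentery. Among gated cells with fewer than 2 of the epithelial genes, 18 had a UMI of Gata3 together with Il1rl1, genes of type 2 lymphocytes and mast cells. Among all gated cells, 18 had a UMI of Jchain or Mzb1, genes of plasma cells. Genes of the lactating mammary gland therefore stood high when all gated cells were set against the rest of the tissue: 9 of the 20 leading genes were Csn3, Csn1s1, Csn2, Csn1s2b, Lalba, Wap, Glycam1, Btn1a1 and Olah, a fatty-acid thioesterase of the gland, below Fcnb in first place.

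After these values were seen, a core of 244 cells was defined as gated cells with at least 2 of the 4 myeloid genes and no UMI of Epcam, Krt8, Krt18, Jchain or Mzb1. It held 72 and 51 cells of the acupuncture libraries, against 91 and 30 cells of the dysentery libraries. The core kept Plac8 in 240 cells, Fgr in 223 and Vcan in 147, but Ace in 20. Ace stood at 1.64 and 7.70 CPM in the core with acupuncture and 20.0 and 4.78 CPM with dysentery, near its level in T cells, whose 4 libraries ranged from 2.36 to 14.4 CPM. Fibroblasts held 383 to 581 CPM of it. Of the 99 gated cells with Ace, 79 thus lay outside the core. Every result below is given for the core, for all gated cells, or for both, and the text says which.

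**Figure D1:**
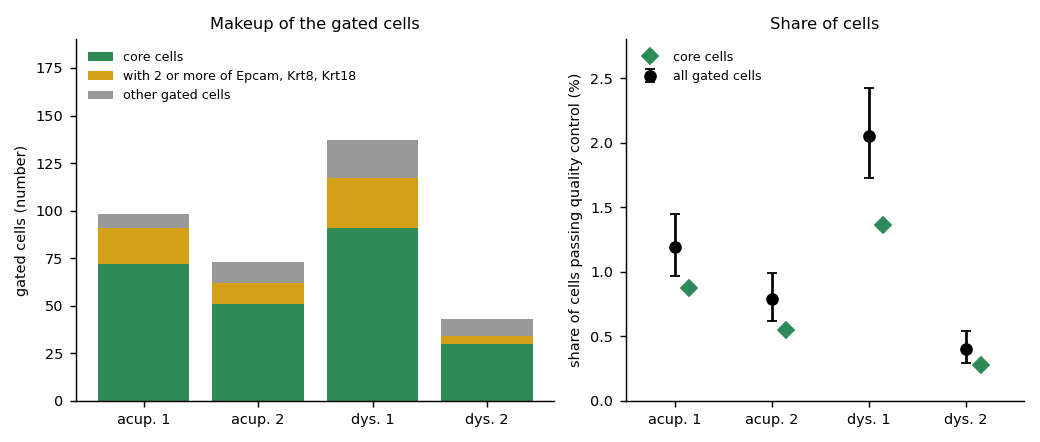
Left, the number of gated cells in each library, split into core cells, cells with at least 2 epithelial genes and other gated cells. Right, the gated cells (black, with exact binomial 95% intervals) and the core cells (green) as a percentage of the cells passing quality control. The dysentery libraries hold both the highest share, 2.06%, and the lowest, 0.400%, of all gated cells.

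The core cells were high in genes of blood monocytes, many of which neutrophils also carried. Their leading gene against all other cells of the fascia was Fcnb, ficolin B, a lectin stored in monocyte and neutrophil granules, with a mean ratio of 71.4. It had 2452 and 1496 CPM in the acupuncture libraries and 2847 and 3443 CPM in the dysentery libraries, against a mean of 8.51 CPM in C1q macrophages. Ly6c, a surface antigen of classical monocytes, followed with a ratio of 32.2, then the membrane protein Mal with 24.6, Samhd1, an antiviral nucleotidase, with 14.6, Spp1 with 12.6 and Lst1, a leukocyte transcript, with 12.4. The cytokine Il1b, with a ratio of 10.0, and the Fc receptor Fcgr3a, with 9.40, also stood among the first 20 genes. None of the 20 had a higher mean in C1q macrophages than in the core, but 10 had a higher mean in neutrophils, among them G0s2, a lipase inhibitor, with 1735 CPM in the core and 8501 CPM in neutrophils, and Hp, haptoglobin, with 342 CPM in the core and 1329 CPM in neutrophils. Spp1, osteopontin, came from dysentery library 1 alone, where it had 2235 CPM, and 1 cell gave 50.0% of its UMIs. This ranking compares cells that the gate chose with the rest, so it has no test.

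Against C1q macrophages the core was high in lysozyme and fibronectin and low in Mrc1 and F13a1, and it held less Cd14. Lyz2, lysozyme, had 26747 and 21479 CPM with acupuncture and 30213 and 31981 CPM with dysentery, against a mean of 8707 CPM in macrophages; it was 1 of the 4 genes that defined the core. Fn1, fibronectin, ranged from 2040 to 2347 CPM over the 4 libraries, against a macrophage mean of 114 CPM. Mrc1, the mannose receptor, averaged 17.3 CPM in the core and 1737 CPM in macrophages. F13a1, a coagulation factor counted here among the monocyte markers, was nearly absent from the core. It was at 0 CPM in both acupuncture libraries and at 1.05 and 4.78 CPM in the dysentery libraries. Macrophages averaged 989 CPM of it, so this marker did not go with the monocyte label. Cd14, the lipopolysaccharide co-receptor, was present in both classes and ranged from 393 to 506 CPM in the core. Macrophages held more of it in every library, at 744 and 735 CPM with acupuncture and 586 and 591 CPM with dysentery.

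Against neutrophils, the class chosen by high S100a8 and S100a9, the core held less of the granulocyte receptors. Cxcr2, the neutrophil chemokine receptor, ranged from 14.3 to 23.1 CPM in the core and averaged 644 CPM in neutrophils. Csf3r, the receptor for granulocyte colony-stimulating factor, ranged from 49.6 to 98.3 CPM and averaged 420 CPM in neutrophils. Il1b was higher in neutrophils than in the core, with a neutrophil mean of 7558 CPM. Csf1r, also a core-defining gene, had 364 and 603 CPM in the core with acupuncture and 345 and 421 CPM with dysentery, against a neutrophil mean of 35.8 CPM. Macrophages held more Csf1r than the core in every library, at 1493 and 1487 CPM with acupuncture and 1232 and 1241 CPM with dysentery. Nr4a1 had 1119 and 1414 CPM in the core with acupuncture and 818 and 1392 CPM with dysentery, against 142 CPM on average in macrophages.

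**Figure D2:**
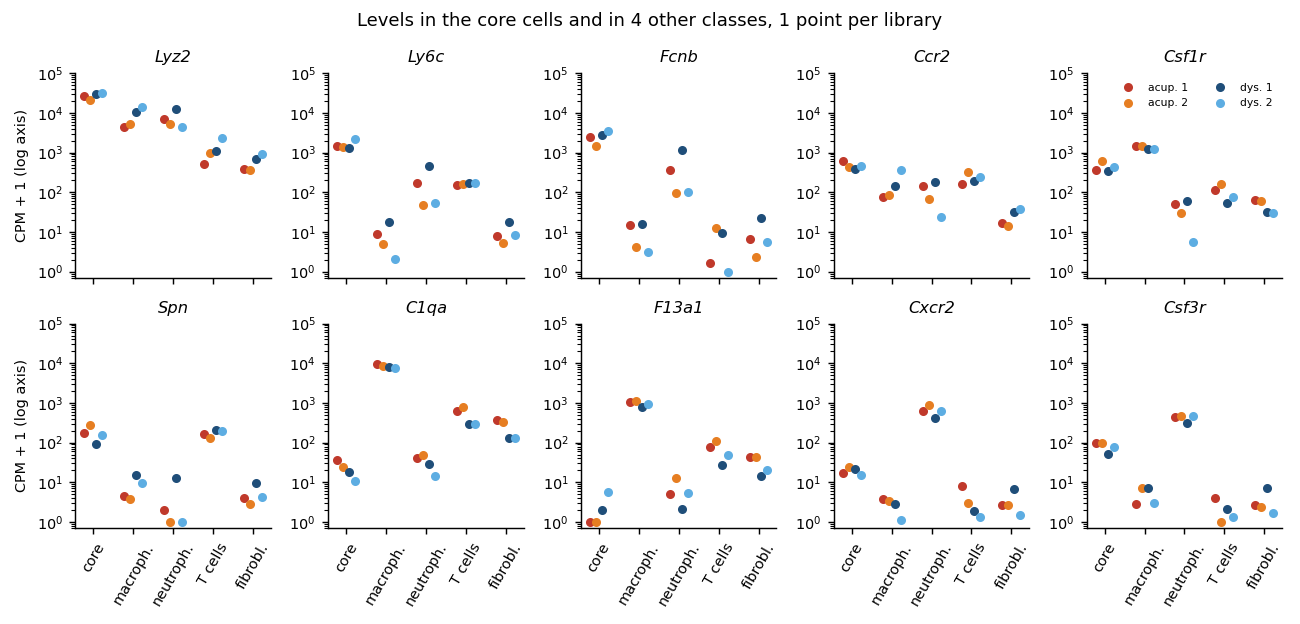
CPM plus 1 on a log axis for 10 genes in core cells, C1q macrophages, neutrophils, T cells and fibroblasts, with 1 point for each library. Ly6c and Fcnb lie highest in the core in every library, C1qa and F13a1 in macrophages, and Cxcr2 and Csf3r in neutrophils.

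Core cells with a UMI of Vcan were higher in classical genes, and core cells without it were higher in patrolling genes. Leaving out the 20 core cells with Ace, 136 cells held Vcan and 88 held neither gene. The cells with Vcan were 63.9% and 43.1% of the core with acupuncture and 57.1% and 53.3% with dysentery. Vcan is a gate gene and the cells that hold it were also deeper, with medians of 10991 and 10610 UMIs with acupuncture and 10171 and 7910 UMIs with dysentery. The cells without it had medians of 4075 and 4853 UMIs with acupuncture and 4652 and 4977 UMIs with dysentery. The levels below are CPM, which sets the cells on one scale, and they are a description with no test. CPM does not correct for a Vcan UMI being missed more often in shallower cells.

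Classical genes stood higher in the Vcan cells of all 4 libraries. Ccr2 had 745 and 595 CPM in Vcan cells with acupuncture and 499 and 685 CPM with dysentery. In the cells without Vcan, Ccr2 had 0 and 49.3 CPM with acupuncture and 122 and 28.5 CPM with dysentery. Each library thus held at least 4 times more Ccr2 in its Vcan cells, and the 0 in acupuncture library 1 stands on 25 cells. Fcnb had 2987 and 2194 CPM in Vcan cells with acupuncture and 3738 and 4167 CPM with dysentery. Without Vcan it was at 0 CPM in both acupuncture libraries and at 1362 and 2284 CPM in the dysentery libraries. Fn1, Cd14, Ly6c and Lyz2 lay the same way in each library. Classical RNA was not confined to the Vcan cells. In dysentery library 2 the cells without Vcan held 1499 CPM of Ly6c and 1128 CPM of Fn1.

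Patrolling genes stood higher in the cells without Vcan. Fcgr3a had 8.0 and 55.3 CPM in Vcan cells with acupuncture and 17.8 and 37.2 CPM with dysentery. In cells without Vcan it had 1742 and 641 CPM with acupuncture and 803 and 357 CPM with dysentery. Spn, a sialomucin, had 30 and 132 CPM in Vcan cells with acupuncture and 33.7 and 37.2 CPM with dysentery, against 801 and 575 CPM with acupuncture and 454 and 328 CPM with dysentery in the cells without Vcan. Cx3cr1, the fractalkine receptor, Nr4a1, the B-cell and monocyte factor Pou2f2 and Csf1r lay the same way in all 4 libraries. Itgal, the integrin chain of LFA-1, did so in 3 and was about equal in dysentery library 2, at 14.9 CPM with and 14.3 CPM without Vcan.

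**Figure D3:**
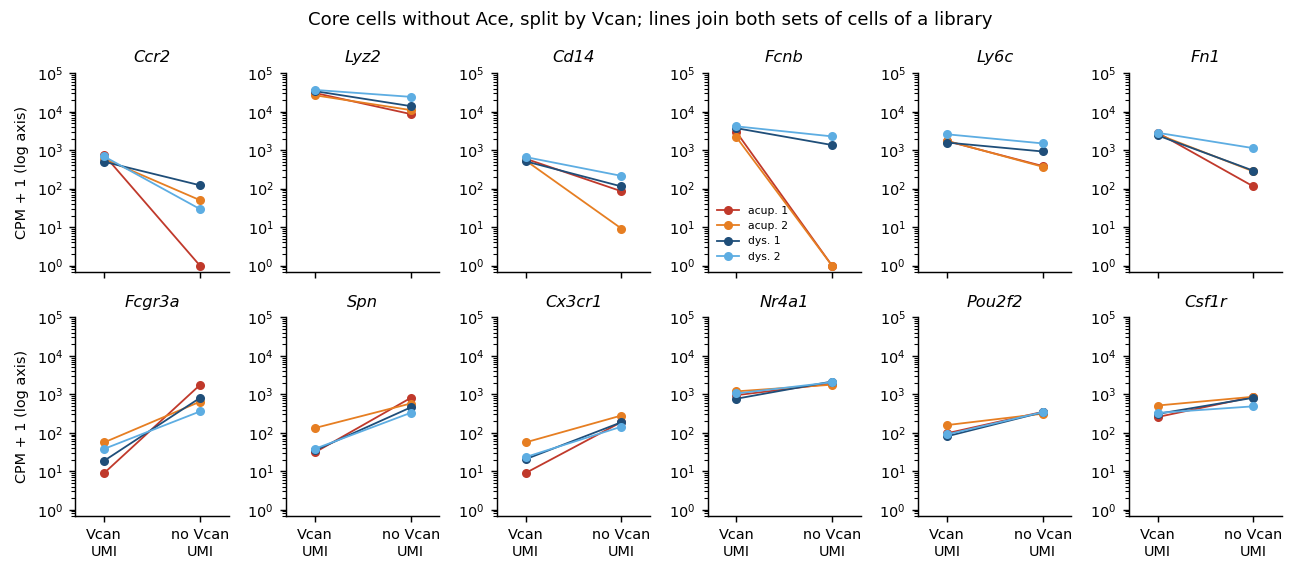
CPM plus 1 on a log axis in core cells with a Vcan UMI (left of each panel) and without (right), cells with Ace left out, with 1 line for each library. The 6 genes of the upper row lie higher in Vcan cells in every library, and the 6 genes of the lower row lie lower.

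The share of monocytes among all cells did not differ between the groups beyond the spread of the libraries. The gated cells made up 1.19% and 0.789% of the cells passing quality control with acupuncture, with exact binomial 95% intervals of 0.966 to 1.45% and 0.619 to 0.991%. With dysentery they made up 2.06% and 0.400%, with intervals of 1.73 to 2.43% and 0.290 to 0.539%, which cover counting error only. Both acupuncture shares lay between the dysentery shares. The means were 0.989 ± 0.282% with acupuncture and 1.23 ± 1.17% with dysentery (SD, n = 2 each). The log2 difference was -0.31 ± 0.84 (SE), with an adjusted p of 0.810 over 10 cell classes in edgeR's quasi-likelihood test on cell numbers, and it turned to 1.3 (adjusted p = 0.091) without dysentery library 1. For the core the shares were 0.873% and 0.551% with acupuncture and 1.37% and 0.279% with dysentery, and the groups overlapped in the same way. C1q macrophages, by comparison, made up 23.1% and 27.7% of cells with acupuncture and 8.36% and 10.2% with dysentery. Their log2 difference in the same test was 1.46 ± 0.56 (SE, adjusted p = 0.373), so it did not pass either. A share of dissociated cells also depends on how many cells of the other classes were recovered.

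Few genes of the gated cells passed the test between the groups. In edgeR's quasi-likelihood test with Benjamini-Hochberg adjustment over 7506 genes, 8 genes passed at an adjusted p under 0.05, which is 0.107% of those tested; 1 was higher (0.0133%) and 7 were lower (0.0933%) with acupuncture. At an unadjusted p under 0.05, 489 genes or 6.51% passed, 3.14% higher and 3.37% lower. The 1 higher gene, ENSRNOG00000051885, has no symbol in the files. It had 1802 and 2638 CPM with acupuncture and 311 and 277 CPM with dysentery, a log2 fold change of 2.88 ± 0.22 (SE, adjusted p = 0.00129). It was not particular to monocytes: T cells had 2521 and 2856 CPM with acupuncture and 344 and 348 CPM with dysentery, and macrophages had 1385 and 1357 CPM with acupuncture and 201 and 210 CPM with dysentery.

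Of the 7 genes that fell, 6 belong to connective tissue cells. Dcn, the matrix proteoglycan decorin, had 57.1 and 66.0 CPM with acupuncture and 369 and 479 CPM with dysentery (log2 fold change -2.79 ± 0.22, adjusted p = 0.00129). Gsn, the actin-severing protein gelsolin, had 118 and 130 CPM with acupuncture and 647 and 499 CPM with dysentery (log2 fold change -2.24 ± 0.22, adjusted p = 0.00624). Among all gated cells, 1 cell gave 23.8% of the Dcn UMIs and 17.3% of those of Gsn. Igfbp6, Aebp1, C1r and Mmp2 fell by 3.09, 2.85, 2.84 and 2.74 on the log2 scale, and the groups of each did not overlap. The groups did not overlap for 35.6% of all genes tested in all gated cells. Dcn was also lower with acupuncture in classes that do not make it. T cells had 108 and 69.4 CPM with acupuncture and 184 and 159 CPM with dysentery, and neutrophils had 127 and 80.8 CPM with acupuncture and 272 and 255 CPM with dysentery. Fibroblasts, its source, had 15673 and 14257 CPM with acupuncture and 17600 and 21164 CPM with dysentery. The part of fibroblast RNA outside cells in these 6 genes was not tested. The seventh gene, AABR07030773.1, had 16.3 and 13.5 CPM with acupuncture and 182 and 274 CPM with dysentery (log2 fold change -3.87 ± 0.30, adjusted p = 0.00129); the files give it no function.

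No gene known for monocyte biology passed the test in all gated cells. Thbs1, thrombospondin 1, came nearest, with 132 and 141 CPM with acupuncture and 26.3 and 48.5 CPM with dysentery (log2 fold change 2.03 ± 0.29, adjusted p = 0.0513). Among the other higher genes of smallest p were Krt18 and Elf5, genes of the epithelial cells. Krt18, a keratin, had 345 and 495 CPM with acupuncture and 210 and 180 CPM with dysentery (log2 fold change 1.06 ± 0.21, adjusted p = 0.252). Elf5, a transcription factor of the mammary gland, had a log2 fold change of 0.94 ± 0.20 (adjusted p = 0.252). Elf5 had no UMI in the core, from which cells with Krt18 were left out by definition, and the epithelial cells gave the larger share of UMIs in the acupuncture libraries, as above. Tnfrsf12a, the TWEAK receptor, had a log2 fold change of 2.01 ± 0.42 (adjusted p = 0.252) and was too low to be tested in the core.

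In the core, where 4880 genes could be tested, the same test called 2 genes, 0.041%, with 1 in each direction (0.0205% each), namely ENSRNOG00000051885 and AABR07030773.1; 406 genes or 8.32% had an unadjusted p under 0.05. ENSRNOG00000051885 had 1790 and 1550 CPM with acupuncture and 265 and 172 CPM with dysentery (log2 fold change 2.75 ± 0.27, adjusted p = 0.00288). AABR07030773.1 had 31.1 and 28.2 CPM with acupuncture and 300.5 and 459 CPM with dysentery (log2 fold change -3.75 ± 0.30, adjusted p = 0.00103). Dcn had 81.9 and 74.4 CPM with acupuncture and 298 and 172 CPM with dysentery and no longer passed (log2 fold change -1.79 ± 0.30, adjusted p = 0.0879); 1 cell gave 33.4% of its core UMIs. DESeq2 called 5 genes in the core, these 3 with Ccl5 and Ifi27. The number called depended on which libraries were used: leaving out 1 of the 4 gave 13 to 168 calls, the most without dysentery library 2.

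The core genes nearest to the threshold included enzymes of inflammation that were higher with acupuncture, none of which passed. Nos2, inducible nitric oxide synthase, had 88.5 and 77.0 CPM with acupuncture and 11.6 and 0 CPM with dysentery (log2 fold change 3.01 ± 0.51, adjusted p = 0.0879). Ptgs2, cyclooxygenase 2, which makes the precursor of prostaglandins, had 81.9 and 187 CPM with acupuncture and 15.8 and 0 CPM with dysentery (log2 fold change 3.22 ± 0.58, adjusted p = 0.0879), and 1 cell gave 16.7% of its UMIs. The dysentery values of both genes rest on few UMIs. Neutrophils also held more Ptgs2 with acupuncture, at 396 and 563 CPM, than with dysentery, at 177 and 121 CPM. Ptger4, a prostaglandin receptor, was too low to be tested.

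Receptors and adhesion molecules stood nearby. Cd55, which protects cells from complement, had 162 and 182 CPM with acupuncture and 51.7 and 71.7 CPM with dysentery (log2 fold change 1.43 ± 0.26, adjusted p = 0.0879). Cd8a, known on T cells and on some rat monocytes, had 131 and 195 CPM with acupuncture and 22.1 and 62.2 CPM with dysentery (log2 fold change 2.15 ± 0.41, adjusted p = 0.0931). T cells lay the other way, with 537 and 273 CPM of Cd8a with acupuncture and 759 and 746 CPM with dysentery. Itga4, the integrin chain of VLA-4, had 152 and 203 CPM with acupuncture and 42.2 and 81.3 CPM with dysentery (log2 fold change 1.57 ± 0.32, adjusted p = 0.127). Fpr3, a formyl peptide receptor, had 29.5 and 69.3 CPM with acupuncture and 3.16 and 0 CPM with dysentery (log2 fold change 3.92 ± 0.74, adjusted p = 0.0931). The groups did not overlap for any of these 4 genes, which was so for 40.8% of all genes tested in the core.

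Interferon-induced genes did not lie one way. Ifit3, which blocks viral RNA, had 85.2 and 126 CPM with acupuncture and 26.4 and 14.3 CPM with dysentery (log2 fold change 1.99 ± 0.36, adjusted p = 0.0879). Ifit1bl had a log2 fold change of 2.57 ± 0.52 (adjusted p = 0.128), and 1 cell gave 26.8% of its UMIs. Ifi27, a mitochondrial interferon-induced protein, had 90.1 and 164 CPM with acupuncture and 407 and 445 CPM with dysentery (log2 fold change -1.91 ± 0.28, adjusted p = 0.0682). Among lower genes of smallest p were also the chemokine Ccl5, with 3.28 and 2.57 CPM with acupuncture and 115 and 23.9 CPM with dysentery (log2 fold change -4.84 ± 0.80, adjusted p = 0.0879), and Pdlim4, with 1.64 and 2.57 CPM with acupuncture and 36.9 and 28.7 CPM with dysentery (log2 fold change -4.10 ± 0.65, adjusted p = 0.0879). The complement genes C4a and C1r had log2 fold changes of -2.77 ± 0.50 and -2.15 ± 0.38 (adjusted p = 0.0879 for both), with 32.1% and 25.5% of their UMIs from 1 cell each. AABR07060872.1, a gene with no function in the files, had a log2 fold change of -3.45 ± 0.60 (adjusted p = 0.0879).

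**Figure D4:**
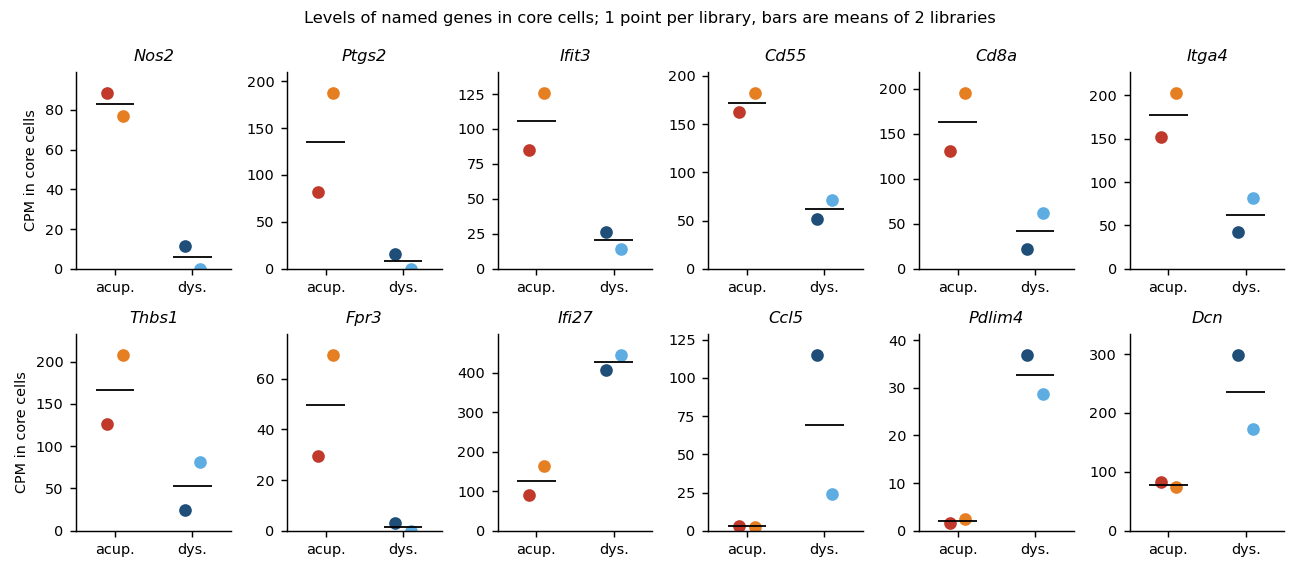
CPM in core cells of 12 genes with the smallest p or named by list, with 1 point for each library and a bar at the mean of 2 libraries; each panel has its own axis. In no panel do the groups overlap, which the choice by smallest p required and which held for 40.8% of all genes tested in the core. None of the 12 genes passed edgeR's test at an adjusted p under 0.05, while DESeq2 called Ccl5, Dcn and Ifi27.

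The defining monocyte genes did not differ detectably in the core. Ccr2 had 611 and 441 CPM with acupuncture and 387 and 450 CPM with dysentery (log2 fold change 0.22 ± 0.24, adjusted p = 0.829). Csf1r, Cd14, Nr4a1 and Pou2f2 had log2 fold changes of 0.20, -0.11, 0.08 and 0.19, and the groups of each overlapped. Cx3cr1 had 44.2 and 128 CPM with acupuncture and 41.1 and 71.7 CPM with dysentery (log2 fold change 0.56 ± 0.48, adjusted p = 0.762). For Fcgr3a, with 320 and 236 CPM with acupuncture and 132 and 143 CPM with dysentery, the log2 fold change was 0.90 ± 0.25 (adjusted p = 0.366). Spn had 175 and 275 CPM with acupuncture and 89.6 and 158 CPM with dysentery (log2 fold change 0.82 ± 0.31, adjusted p = 0.500). Fewer patrolling cells and less RNA per cell cannot be told apart in such sums. Cells of the core with neither Vcan nor Ace made up 34.7% and 51.0% with acupuncture and 26.4% and 43.3% with dysentery, and the groups overlapped.

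The named cytokines also failed the test. Il1b had 2799 and 2773 CPM with acupuncture and 1242 and 1966 CPM with dysentery (log2 fold change 0.68 ± 0.24, adjusted p = 0.494). Cxcl2, a neutrophil-attracting chemokine, had 2371 and 2065 CPM with acupuncture and 1387 and 1416 CPM with dysentery (log2 fold change 0.53 ± 0.20, adjusted p = 0.500). Tnf had 60.6 and 74.4 CPM with acupuncture and 67.5 and 100 CPM with dysentery (log2 fold change -0.37 ± 0.30, adjusted p = 0.757). Il10, an anti-inflammatory cytokine, was too low to be tested, at 11.5 and 10.3 CPM with acupuncture and 13.7 and 19.1 CPM with dysentery.

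None of 18 gene lists had a member that passed edgeR's test in either set of cells, so the lists are described by members with an unadjusted p under 0.05 beside the background of 4.14% higher and 4.18% lower over all genes tested in the core. Ccl5 and Ifi27 were the 2 list members called by DESeq2 in the core, and Ccl5 and Thbs1 in all gated cells. Scaling by library totals alone, without edgeR's TMM factors, moved the median of all core genes to 0.12 on the log2 scale, against -0.01 with them. Of 14 patrolling genes tested, 3 were higher and none lower (Fcgr3a, Adgre4 and Spn), with a median log2 fold change of 0.23. Of 15 classical genes, Thbs1 was higher and Lgals3 and Lyz2 were lower, with a median of -0.11. Lyz2 was 1 of the 4 genes that defined the core, so its place in this count is a description only. These counts rest on 1 to 3 genes each.

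Inflammatory lists split in direction. Of 19 cytokines and chemokines, Ccl7, Il1b, Ccl2 and Cxcl2 were higher and Ccl5 and Il18 lower, with a median of 0.25. In Ccl7, a monocyte-attracting chemokine, 1 cell gave 55.1% of the UMIs. Of 27 immediate early genes, which respond within minutes to many stimuli, Nr4a3 and Nr4a2 were higher and Zfp36, Egr1, Ier2, Fos and Btg2 lower, with a median of -0.06. Of 21 NF-kB response genes, Bcl3, Rel and Bcl2a1 were higher and none lower, with a median of 0.13. Of 14 interferon genes, Ifit3, Irf7, Oas1a and Oasl were higher and Ifi27 lower, with a median of 0.14.

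Genes of antigen presentation and of macrophage maturation lay mostly lower. Of 15 antigen presentation genes, the class II genes RT1-Bb, RT1-Ba and RT1-Db1 were lower and Tap1, the peptide transporter, was higher, with a median of -0.17; the gate had already capped Cd74, the class II chaperone. RT1-Bb had 4.92 and 43.6 CPM with acupuncture and 97.0 and 76.5 CPM with dysentery (log2 fold change -2.23 ± 0.59, adjusted p = 0.326). Of 15 macrophage maturation genes, Hmox1, Ctsd, Cd9 and Lgals3 were lower, with a median of -0.70 over the list. Hmox1, heme oxygenase 1, had 93.4 and 89.8 CPM with acupuncture and 189 and 129 CPM with dysentery (log2 fold change -0.99 ± 0.26, adjusted p = 0.326). Ctsd and Cd9 were high in dysentery library 1 alone. Ctsd, cathepsin D, had 254 and 369 CPM with acupuncture and 2856 and 230 CPM with dysentery, and 1 cell gave 35.2% of its UMIs.

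The other lists held 0 to 3 such genes each. The 22 oxidative phosphorylation genes were all lower with acupuncture under TMM scaling, with a median of -0.28 and Uqcr10 at an unadjusted p under 0.05, but 7 of them were higher under scaling by library totals alone. Glucocorticoid response genes held 2 lower of 12 (Mt1 and Mt2A) and heat shock genes 1 lower of 17 (Hsp90aa1). Fc and pattern receptors held 3 higher of 17 (Fcgr3a, Tlr2 and Clec4a3), survival and cell death genes 2 higher of 16 (Pmaip1 and Bcl2a1), growth and repair genes 2 higher of 9 (Thbs1 and Plaur), and eicosanoid genes 1 higher of 6 (Ptgs2). Migration and adhesion genes held 2 higher and 1 lower of 20 (Itga4, Plaur and Ccr7), myeloid identity genes 3 lower of 24 (Ncf1, Lyz2 and Lst1), and hypoxia and glycolysis genes none of 15. Lyz2, counted here again, helped to define the core.

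The core was also set against C1q macrophages of the same libraries, and whether their changes differed depended on which genes entered the model. The difference between the classes in their acupuncture against dysentery change was tested in 1 edgeR quasi-likelihood model with the library as a block and Benjamini-Hochberg adjustment. Of 9878 genes, 106 passed, 1.07%. The change was higher in the core for 40 (0.405%) and lower for 66 (0.668%). For 79 of the 106 the fitted changes had opposite signs, counted however small either change was. The share of opposite signs over all genes tested was not computed, so this count shows no reversal in the core. In all gated cells 3 of 10708 genes passed, 0.028%, with 1 higher (0.00934%) and 2 lower (0.0187%). At an unadjusted p under 0.05, 9.05% of genes passed in the core and 7.85% in all gated cells. The core was chosen after its cells had been examined, and the count rests on it. Of the 106 genes, 63 to 103 were still called when 1 library was left out. A gene could enter this model through its counts in a single class, and 85 of the 106 could be tested in each class alone. In a model limited to the 4865 genes testable in each class alone, none passed in the core, with 520 or 10.7% at an unadjusted p under 0.05 and a smallest adjusted p of 0.0563. All 85 kept their direction there and had an unadjusted p under 0.05. They had been picked by the wider model on the same counts, so this adds no separate support. In all gated cells none of 7270 such genes passed, with 609 or 8.38% at an unadjusted p under 0.05. Every difference given below as passing comes from the wider model, and in the limited model it lost its call or could not be tested.

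The immediate early genes held more of these 106 than any other list. Of the 30 tested, 12 had a lower change in the core, against the background of 0.668%, and none a higher one. All 12 could be tested in each class alone, and the limited model gave them adjusted p-values of 0.0658 to 0.247. They were Gadd45b, Egr1, Junb, Ier2, Zfp36, Jun, Fosb, Btg2, Fos, Nr4a1, Atf3 and Ier3. The list and the core were chosen with results of these data known, so the count is a description and no test of the list. The median change of the list was -0.00 in the core and 1.38 in macrophages on the log2 scale, and 15 of its genes were higher with acupuncture in the core against 29 in macrophages. Egr1, a zinc-finger factor, had 701 and 462 CPM in the core with acupuncture and 779 and 1019 CPM with dysentery. In macrophages it had 1875 and 2195 CPM with acupuncture and 719 and 225 CPM with dysentery. The changes differed by -3.10 ± 0.46 on the log2 scale (adjusted p = 0.0014), and the difference passed in all 4 fits that left out 1 library; the limited model gave -3.17 ± 0.63 (adjusted p = 0.145). Gadd45b, a stress-response gene, was level in the core, with 741 and 816 CPM with acupuncture and 721 and 746 CPM with dysentery. Macrophages had 566 and 750 CPM of it with acupuncture and 152 and 69.4 CPM with dysentery, a difference of -2.71 ± 0.34. Jun and Junb, subunits of AP-1, differed by -2.31 ± 0.39 and -1.92 ± 0.30 and also passed in all 4 such fits.

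Chemokines lay the same way. Cxcl1, another neutrophil-attracting chemokine, had 282 and 372 CPM in the core with acupuncture and 413 and 167 CPM with dysentery, so the groups overlapped. In macrophages it had 1259 and 3346 CPM with acupuncture and 231 and 127 CPM with dysentery, and the changes differed by -3.48 ± 0.38 (adjusted p = 0.0563 in the limited model). Among the core cells, 1 cell gave 32.5% of its UMIs. Cxcl2 differed by -2.57 ± 0.38: macrophages had 3202 and 5836 CPM with acupuncture and 720 and 357 CPM with dysentery, a wider gap than in the core. Il10 had 579 and 719 CPM in macrophages with acupuncture and 62.1 and 131 CPM with dysentery; with too few UMIs in the core to be tested there, it gives no difference between the classes. Gdf15, a stress cytokine, differed by -2.59 ± 0.59 (2 of 4 fits) and Cxcl3 by -4.49 ± 0.82 (4 of 4), with 18.5% and 20.5% of their core UMIs from 1 cell each. Csf1, the growth factor of macrophages, had the higher change in the core, by 2.11 ± 0.51 (1 of 4 fits).

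Regulators of NF-kB and metallothioneins lay the same way. Nfkbiz, Nfkbia and Zc3h12a, which restrain or shape NF-kB output, differed by -2.11 ± 0.41, -1.70 ± 0.40 and -1.63 ± 0.39, and they were 3 of 23 genes of their list. Mt2A, a metal-binding protein that glucocorticoids induce, had 151 and 169 CPM in the core with acupuncture and 215 and 258 CPM with dysentery, against 490 and 361 CPM in macrophages with acupuncture and 75.8 and 22.9 CPM with dysentery. Its changes differed by -3.95 ± 0.44 (adjusted p = 6.19e-05, and 0.0658 in the limited model), and Mt1 and Klf9 of the same list were called as well. Ifi27 differed by -1.87 ± 0.36, since macrophages had 520 and 372 CPM with acupuncture and 489 and 439 CPM with dysentery.

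Of 15 patrolling genes, Spn, Fcgr3a and Cx3cr1 had the higher change in the core and Nr4a1 the lower, by -1.61 ± 0.37 (adjusted p = 0.0381). Spn differed by 2.63 ± 0.42 (adjusted p = 0.00302, and 0.143 in the limited model) and passed in all 4 fits that left out 1 library. Macrophages held little of it, at 3.42 and 2.90 CPM with acupuncture and 13.9 and 8.90 CPM with dysentery. Fcgr3a and Cx3cr1 differed by 2.87 ± 0.61 and 4.36 ± 1.01, but dysentery library 1 carried the macrophage side: it held 176 CPM of Fcgr3a and 77.2 CPM of Cx3cr1, and the other 3 libraries at most 23.6 and 3.61 CPM. Ccr2, a classical gene, differed by 1.67 ± 0.38 (3 of 4 fits), Nos2 by 3.45 ± 0.68 (3 of 4), Ptgs2 by 2.52 ± 0.55 (2 of 4) and Klra17, which was too low to be tested in the core alone, by 4.55 ± 1.00 (2 of 4). Macrophages held less Ccr2 with acupuncture, at 73.5 and 83.4 CPM, than with dysentery, at 141 and 356 CPM; the part of monocyte RNA among the macrophages in these differences was not tested.

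**Figure D5:**
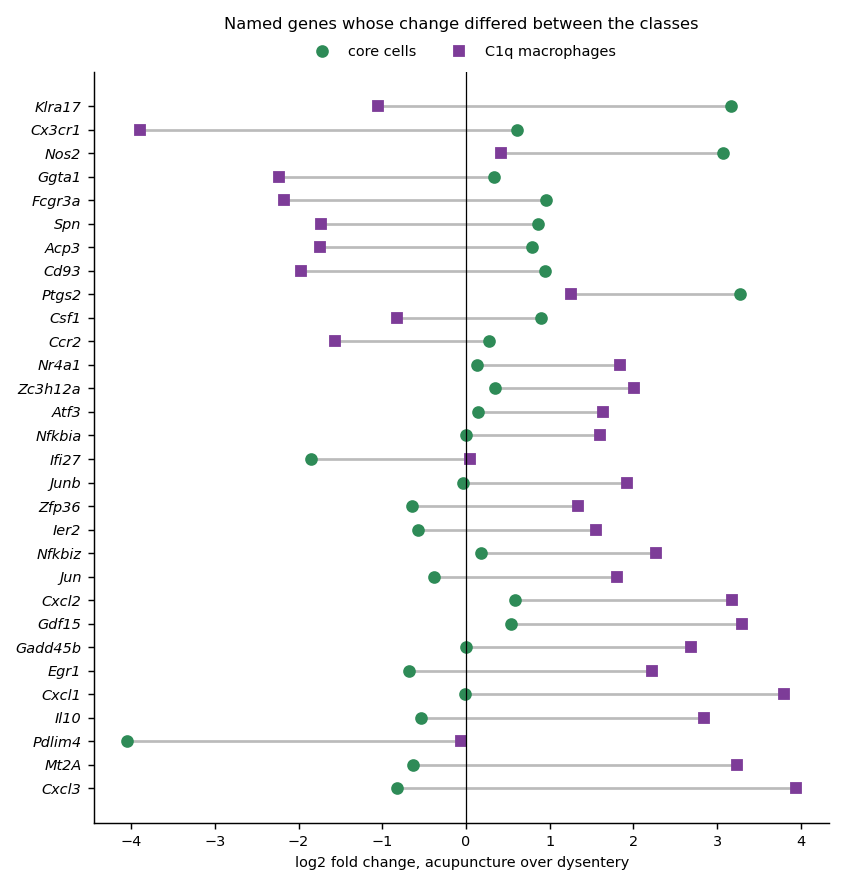
Fitted log2 fold changes, acupuncture over dysentery, in core cells (green circles) and C1q macrophages (purple squares) for 30 named genes whose change differed between the classes in the wider model; none passed in the model limited to genes testable in each class alone. Spp1, Ccr7 and Hbb-b1 are not drawn. Egr1, Gadd45b, Jun, Cxcl1 and Mt2A lie above 1 in macrophages and near or below 0 in the core.

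Set against neutrophils, the core differed in 3 of 5683 genes, 0.0528%, all with a lower change in the core: Igf1, Lpl and ENSRNOG00000049075; limited to the 3749 genes testable in each class alone, none passed (161 or 4.29% at an unadjusted p under 0.05). Lpl, lipoprotein lipase, had 8.19 and 2.57 CPM in the core with acupuncture and 113 and 23.9 CPM with dysentery, and neutrophils had 27.5 and 49.2 CPM with acupuncture and 23.1 and 13.4 CPM with dysentery. Its changes differed by -4.77 ± 0.73 (adjusted p = 0.0115, and 0.154 in the limited model), and 1 cell gave 25.4% of its core UMIs. None of the 3 genes passed without dysentery library 1. The core and neutrophils were alike in median over the 27 immediate early genes tested, with changes of -0.06 and -0.04 and none called, while 263 genes of all tested, 4.63%, had an unadjusted p under 0.05. Egr1 differed by -0.91 ± 0.45 (adjusted p = 0.992) against neutrophils. With all gated cells in place of the core, 36 of 7409 genes passed, 0.486% (5.3% at an unadjusted p under 0.05), among them Ighm, an immunoglobulin gene for which 1 cell gave 99.2% of the UMIs, and Lcn2, a lipocalin. Of these 36, 4 to 32 were still called when 1 library was left out, and 19 could be tested in each class alone; limited to 4056 such genes, none passed (191 or 4.71% at an unadjusted p under 0.05).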

How the data were processed

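The authors deposited raw UMI counts per gene and cell for 4 single-cell 3' RNA libraries, with barcode and gene name lists; Cell Ranger 6.0.1, STAR and the builds mRatBN7.2 and GRCh38.p13 are named, with no role given, per the submitters' processing notes. Of 30560 gene rows, 7162 had no symbol. Groups follow the titles, which the treatment field contradicts.

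Cells with at least 300 genes and at most 20% mitochondrial UMIs were kept, and no doublet caller was run. The gate asked for 2 of its 5 genes, and per 10000 UMIs for under 10 of C1q, under 50 of Cd74, under 50 of S100a8 with S100a9 and under 10 of type I collagen, with under 3 Pecam1 UMIs. Other classes were set by the same genes. The members and lists were chosen with earlier results of these data known, and the core of 244 cells after seeing the data.

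Within each library, the counts of a class were added up. edgeR 4.0.16 (R 4.3.3) tested them by quasi-likelihood with TMM scaling, a minimum count of 10, Benjamini-Hochberg adjustment over all genes tested and a two-sided threshold of 0.05; DESeq2 1.42.0 was an alternative. Scripts used Python 3.11.15 with numpy 2.4.6, pandas 2.3.3, scipy 1.17.1 and matplotlib 3.10.9, and were tested on simulated data. CPM values are counts over all UMIs of the class. Intervals are exact Clopper-Pearson ones.

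Genes named were the 12 largest changes per direction past the threshold, with a symbol, at least 20 CPM in the higher group and groups that do not overlap. With fewer than 5 such genes, the 8 of smallest p were taken. To these were added a fixed set of monocyte and inflammation genes, list members of smallest p, 20 leading genes by ratio with 10 CPM added, and the 8 largest differences per direction between classes. Egr1, Gadd45b, Jun, Mt2A and other called list members were chosen after their values were seen. Genes without a symbol that passed were named too. A few genes that these rules name are not reported here. Alternatives changed the scaling, the count filter, the mitochondrial limit, the gate, the block and the libraries used; limiting the models between classes to genes testable in each class alone was added after seeing the data.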

Additional observations from a re-analysis of the deposited data

Results flagged for a closer look

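Each value below is the log2 change, acupuncture over dysentery, in the monocytes minus that in another class of the same libraries, and each was listed because edgeR's quasi-likelihood test of that difference passed in the model whose genes could enter through a single class. None passed in the model limited to genes testable in each class alone. Causes were not tested. Between all gated cells and C1q macrophages, Cldn4 differed by 3.66 and Hmox1 by -2.93; Cldn4 is an epithelial gene.

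Between core cells and C1q macrophages, immediate early and stress genes had the lower change in the core: Egr1 by -3.10, Gadd45b by -2.71, Jun by -2.31, Ier2 by -2.07, Zfp36 by -1.97, Junb by -1.92, Atf3 by -1.68 and Nr4a1 by -1.61. Cytokines lay the same way, with Cxcl3 at -4.49, Cxcl1 at -3.48, Gdf15 at -2.59 and Cxcl2 at -2.57. So did Nfkbiz at -2.11, Nfkbia at -1.70, Zc3h12a at -1.63, Mt2A at -3.95, Pdlim4 at -3.94 and Ifi27 at -1.87. Il10 stood at -3.64, but it was too low to be tested in the core, where 1 cell gave 32.1% of its UMIs. Wide differences that rested on few cells were Spp1 at -9.76, with 50.0% of the core UMIs from 1 cell, and Ccr7 at -7.59, with 60%. Both were too low to be tested in the core alone, as was Klra17. Hbb-b1, a globin gene of red cells, differed by -7.18, and 1 cell gave 27.3% of its core UMIs. That share was 32.5% for Cxcl1, 30.2% for Pdlim4 and 20.5% for Cxcl3. Genes with the higher change in the core were Klra17 by 4.55, Cx3cr1 by 4.36, Nos2 by 3.45, Ggta1 by 3.05, Fcgr3a by 2.87, Spn by 2.63, Acp3 by 2.60, Cd93 by 2.58, Ptgs2 by 2.52, Csf1 by 2.11 and Ccr2 by 1.67. For Cd93 the groups overlapped in the core, with 77.0 and 10.3 CPM with acupuncture and 26.4 and 14.3 CPM with dysentery. Without 1 library its difference ranged from 0.96 to 3.78.

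Between all gated cells and neutrophils, Spn differed by 4.24, Pcsk1 by 4.22, Lilrb3l by 4.07, AABR07006242.1 by 4.02, Cad by 3.06, Fbxo32 by 2.88, Lcn2 by 2.83, Mt1 by 2.35 and Phlda1 by 1.88. Of these, Spn, Pcsk1, Lilrb3l, AABR07006242.1 and Cad could not be tested in each class alone. Neutrophils held almost none of 2 of them: Spn had 1.02 and 0 CPM with acupuncture and 12.1 and 0 CPM with dysentery, and AABR07006242.1 had 1.02 and 0 CPM with acupuncture and 13.2 and 0 CPM with dysentery. Without dysentery library 1 these differences turned to -2.48 for Spn and -1.15 for AABR07006242.1. Lower changes in the gated cells were those of Ighm at -7.24, Slamf9 at -4.09, Hspb1 at -3.11, Acod1 at -2.96, Cd83 at -2.95, Cystm1 at -1.91, Lpl at -1.84 and Ifi27l2b at -1.70. Of these, 1 cell gave 99.2% of the gated UMIs of Ighm, 43.2% of those of Hspb1 and 42.9% of those of Acod1, and Ighm, Slamf9 and Acod1 could not be tested in each class alone. Without 1 library Hspb1 ranged from -5.21 to -1.96 and Acod1 from -4.85 to -1.77. Between core cells and neutrophils, Lpl differed by -4.77.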

How the results depend on the processing

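The count of genes that passed in all gated cells, 8, was 2 with at least 3 gate genes, 2 in the core, 2 without Vcan in the gate, 191 with no filter on low counts, 25 with the replicate block, 22 with 2 myeloid genes and 5 without cells of high UMI count. Leaving out 1 library gave 5 to 92. In the core the count of 2 was 9 with the replicate block and 5 with DESeq2, and 13 to 168 without 1 library (34 without dysentery library 1). Against C1q macrophages the count of 3 in all gated cells was 106 in the core, and without 1 library it was 11 to 87 in all gated cells and 89 to 331 in the core (219 without dysentery library 1). Against neutrophils the count of 36 was 3 in the core, and without 1 library 9 to 69 in all gated cells and 4 to 101 in the core (12 without acupuncture library 2 and 23 without dysentery library 1). Limited to genes testable in each class alone, a setting chosen after seeing the data, the counts against macrophages and against neutrophils were all 0, in all gated cells and in the core. The same replicate numbers did not pair the libraries: their deviations correlated at 0.00239 over 7506 genes.

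The log2 difference in monocyte share turned to 0.10 with TMM on cell numbers and 0.072 with the replicate block, and ranged from -1.06 to 1.3 without 1 library. Of 856 values under alternatives, over 100 single-gene results, 663 kept direction and call, 94 lost the call, 47 gained it and 52 reversed. In all gated cells Ccr2 reversed to -0.0026 with DESeq2, -0.00069 with RLE factors, -0.088 with 3 gate genes, -0.064 without Vcan, -0.026 at 10% mitochondrial UMIs and -0.020 with the block. Pou2f2 reversed to -0.051 with DESeq2, -0.00085 with RLE factors, -0.033 at 10% mitochondrial UMIs and -0.033 with the block, and Irf7 to -0.0036 with the block. With 3 gate genes Cx3cr1 reversed to -0.20, Fcgr3a to -0.45, Nr4a1 to 0.42 and Tnf to 0.44. In the core Cd14 reversed to -0.11, Csf1r to 0.20, Egr1 to -0.74 and Nr4a1 to 0.077. With 2 myeloid genes Cd14 reversed to -0.41, Csf1r to 0.46, Egr1 to -0.17, Nr4a1 to 0.30, Elf5 to -0.18 and Krt18 to -0.73. Without cells of high UMI count Csf1r reversed to 0.20, Egr1 to -0.48 and Nr4a1 to 0.086. Without Vcan Csf1r reversed to 0.019, Nr4a1 to 0.10 and Tnf to 0.061, and with no filter Csf1r to 0.019.

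Without 1 library, values ranged from -0.38 to 0.30 for Ccr2, -0.25 to 0.20 for Csf1r, -0.39 to 0.90 for Cx3cr1, -0.58 to 1.97 for Gdf15, -0.19 to 0.23 for Nfkbiz, -0.37 to 0.22 for Nr4a1, -2.31 to 0.30 for Pdlim4, -0.44 to 0.33 for Pou2f2, -0.69 to 0.23 for Tnf and -0.43 to 0.61 for Irf7. Differences between classes ranged from -14.99 to 1.46 for Hbb-b1 (core against macrophages), -1.15 to 5.95 for AABR07006242.1 and -2.48 to 7.28 for Spn (both all gated cells against neutrophils). The cause was not tested. The core of dysentery library 2, with 30 cells, limits what could be detected.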
